A study of Mus musculus with 4 samples.

Results

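The salt-inducible kinases SIK1, SIK2 and SIK3 and the proteins they hold in check were examined in fetal mouse lung after deletion of Stk11, the gene of the kinase that activates them. The group was chosen by gene symbol and held 10 genes of the 22556 in the deposited table: the kinase genes Sik1, Sik2 and Sik3, the co-activator genes Crtc1, Crtc2 and Crtc3, the transcription factor gene Creb1, and the class IIa histone deacetylase genes Hdac4, Hdac5 and Hdac7. All 10 symbols were found in the table. STK11 switches SIK kinases on by phosphorylating their activation loop. Active SIKs phosphorylate CRTC proteins and class IIa HDACs, which are then bound by 14-3-3 proteins and kept in the cytoplasm. When SIKs are off, for instance under cyclic AMP and protein kinase A, CRTCs enter the nucleus and drive CREB target genes, while class IIa HDACs enter the nucleus and repress MEF2 target genes. These steps act on proteins, whereas the measurement here was of transcripts.

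Whole lungs were taken at embryonic day 16.5 for 2 Control libraries, labelled Shh-Cre with Stk11F/+, and for 2 Shh-Stk11 libraries, labelled Shh-Cre with Stk11F/F. All 4 libraries therefore carried the Cre driver and at least 1 floxed allele, and the Controls kept 1 intact allele in the epithelium. Shh-Cre acts in the endoderm that forms the airway and alveolar epithelium, so other cells of the lung retained Stk11 in both genotypes. The strain is given as C57BL/6 in the labels and as mixed background in the methods. Neither litter nor sex was labelled.

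Gene expression was deposited as FPKM, a read count scaled by transcript length and library size. Depth, estimated from the step size of low values, lay between 30800000 and 38000000 reads per library. Lung epithelial markers were present in each library, with Nkx2-1 at 170 to 207 FPKM and Epcam at 95.5 to 120 FPKM. Of the 5 examined, 0 passed the threshold in limma and 1 had an unadjusted p below 0.05. Sftpc was at 17426 and 15784 FPKM in the Control libraries and lower, at 8005 and 12048 FPKM, in the Shh-Stk11 libraries, while the log2 fold changes of the other 4 were positive (0.16 to 0.49). Stk11 itself was at 44.0 and 45.5 FPKM in the Control libraries and at 29.5 and 26.0 FPKM in the Shh-Stk11 libraries, a fall just past the threshold (-0.69 on the log2 scale, SE 0.125, limma adjusted p 0.0499). It passed in 4 of the 12 alternatives with all libraries (limma adjusted p 0.0236 to 0.26 over the 12) and in 0 of the 4 that left out 1 library (0.113 to 0.183). Transcripts of Ddx3y, a gene of the Y chromosome, reached 23.5 FPKM in Shh-Stk11 2 but no more than 0.0285 FPKM elsewhere, whereas Xist was at 0.239 FPKM there and 65.1 FPKM or more elsewhere, so that library differed in sex from the other 3. None of the 10 genes lies on a sex chromosome.

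None of the 10 transcripts passed the test between genotypes. Values were compared with limma on log2(FPKM + 0.1) over the 13770 genes whose mean reached 0.5 FPKM, and p-values were adjusted over all of these by the Benjamini-Hochberg method with a threshold of 0.05. All 10 genes were above that minimum. Of the 10, 0 had an adjusted p below 0.05 and 1, Creb1, had an unadjusted p below 0.05. Over all genes tested, 2.27% had an adjusted p and 15.2% an unadjusted p below 0.05. The genotypes did not overlap for 4 of the 10 genes, 2 higher (Sik1, Creb1) and 2 lower (Crtc2, Crtc3) in Shh-Stk11 lungs, against 46.8% of all genes tested (19.2% higher and 27.6% lower). The log2 fold changes lay between -0.21 and 0.58 with a median of 0.07, where the median of all genes tested was -0.05. The 95% interval of each of the 10 stayed within a log2 change of 0.893 in either direction, so a doubling or a halving lay outside each interval. In bulk tissue, fewer cells of a type and less RNA per cell cannot be told apart, and a change limited to the epithelium is diluted by the other cells.

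**Figure D1:**
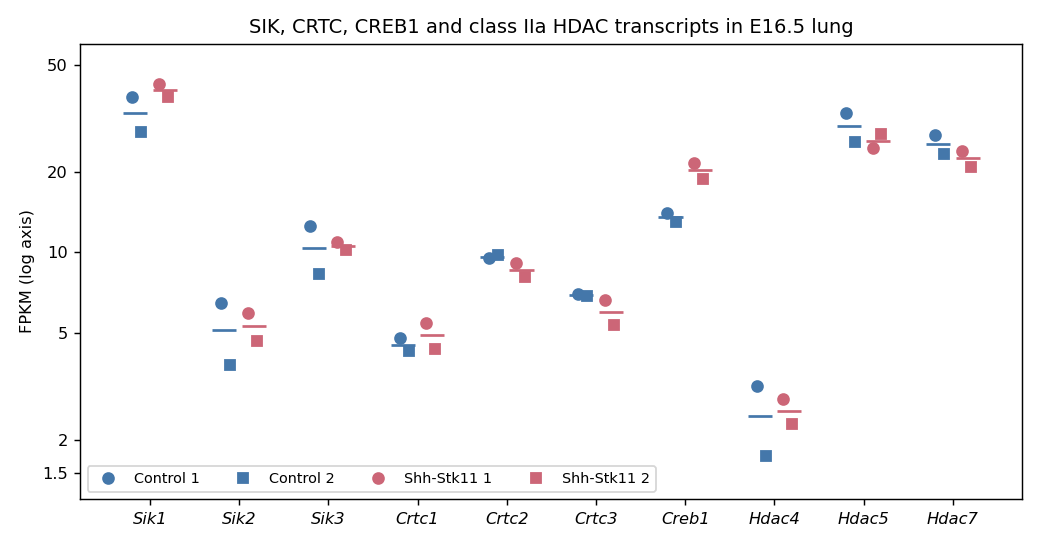
FPKM on a log axis of the 10 genes in each library, with circles for replicate 1, squares for replicate 2, blue for Control, red for Shh-Stk11 and short lines for the mean of each genotype (n = 2). The Creb1 values of both Shh-Stk11 libraries (21.7 and 18.8) sit above both Control values (14.001 and 13.02), and the wide spread between the Control replicates is visible for Sik2, Sik3 and Hdac4.

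The levels of the 10 genes, which FPKM allows to be compared per length, spanned a wide range. They are levels of whole lung, in which epithelial and other cells are mixed. By qPCR of E16.5 airway epithelium, the paper found substantial levels only for Prkaa1 and Mark3 among the STK11 targets it measured. Its qPCR primers covered Sik1, Sik2 and Sik3 too. Sik1 was the most abundant, at a mean of 36.7 FPKM over the 4 libraries, above 81.6% of the genes tested. Hdac5 (27.8 FPKM), Hdac7 (23.9 FPKM) and Creb1 (16.9 FPKM) followed, and among these 4 genes each overlapped its neighbour in the order over the 4 libraries. Sik3 (10.5 FPKM) and Crtc2 (9.11 FPKM) overlapped each other and lay below every Creb1 value. Crtc3 (6.46 FPKM), Sik2 (5.22 FPKM) and Crtc1 (4.72 FPKM) formed the next group, again with overlap between neighbours. Hdac4 was the least abundant at 2.505 FPKM, above 17.0% of the genes tested, and its highest value lay below the lowest of Crtc1. If every read came from the longest annotated transcript, the values would stand for 432 reads (Hdac4 in Control 2) to 6568 reads (Hdac5 in Control 1), an upper estimate where shorter transcripts contribute.

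Among the kinases, Sik1, whose gene is itself induced by cyclic AMP through CREB in many tissues, was at 37.9 and 28.2 FPKM in the Control libraries and at 42.6 and 38.1 FPKM in the Shh-Stk11 libraries. Both Shh-Stk11 values were above both Control values, but the lower of them exceeded Control 1 only narrowly. The log2 fold change of Sik1 was 0.30 (SE 0.17, 95% interval -0.11 to 0.71), with a limma adjusted p of 0.475. The difference between the Control replicates (0.43 on the log2 scale) was larger than the difference between genotypes. Without Control 2 the log2 fold change of Sik1 was 0.09, and without Control 1 it was 0.51.

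Sik2, first known as a kinase of adipose tissue, was at 6.48 and 3.799 FPKM in the Control libraries and at 5.93 and 4.68 FPKM in the Shh-Stk11 libraries. Both Shh-Stk11 values thus lay between the Control values. Its log2 fold change was 0.08 (SE 0.267, limma adjusted p 0.916). Sik3, the broadly expressed member that has a role in skeletal growth, was at 12.5 and 8.28 FPKM in Control and at 10.9 and 10.2 FPKM in the Shh-Stk11 lungs. It showed the same arrangement, with a log2 fold change of 0.05 (SE 0.205, limma adjusted p 0.933). Neither Sik2 nor Sik3 differed between genotypes by more than the Control replicates differed from each other. The 95% interval of the fold for Sik2 ran from 0.679 to 1.65 and that for Sik3 from 0.737 to 1.46. The sign of each rested on Control 2: without it, the log2 fold changes were -0.29 for Sik2 and -0.24 for Sik3, and without Control 1 they were 0.46 and 0.35. Sik2 was also below 0 without Shh-Stk11 1 (-0.08).

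The CRTC co-activators are the SIK substrates that bind CREB. Crtc1, the form most studied in neurons, was at 4.77 and 4.27 FPKM in Control and at 5.46 and 4.37 FPKM in the Shh-Stk11 lungs, with the genotypes overlapping (log2 fold change 0.11, SE 0.171, limma adjusted p 0.805). Its sign turned without Shh-Stk11 1 (-0.045) and with the trend with length and GC content taken out (-0.0062), and the value was 0.27 without Shh-Stk11 2. Crtc2, the form known for control of glucose production in liver, was at 9.49 and 9.74 FPKM in Control and at 9.11 and 8.11 FPKM in the Shh-Stk11 lungs. Both Shh-Stk11 values were lower, by a log2 fold change of -0.16 (SE 0.132, limma adjusted p 0.624). Crtc3 was at 6.96 and 6.89 FPKM in Control and at 6.64 and 5.34 FPKM in the Shh-Stk11 lungs. For this gene too both Shh-Stk11 values were lower, with a log2 fold change of -0.21 (SE 0.156, limma adjusted p 0.578). For Crtc2 and Crtc3 the Control replicates were close, at a log2 difference of 0.04 and -0.02, whereas the Shh-Stk11 replicates differed by -0.17 and -0.31, so the position of the mean depended on Shh-Stk11 2. Without that library the log2 fold changes were -0.08 for Crtc2 and -0.06 for Crtc3. Without Shh-Stk11 1 they were -0.24 and -0.37.

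Creb1, which encodes the cyclic AMP response element binding protein that CRTCs co-activate, showed the largest difference of the 10 genes. It was at 14.001 and 13.02 FPKM in Control and at 21.7 and 18.8 FPKM in the Shh-Stk11 lungs, a mean of 13.5 ± 0.694 against 20.2 ± 2.01 FPKM (SD, n = 2). The gap between genotypes was larger than the spread within either. The log2 fold change was 0.58 (SE 0.132, 95% interval 0.26 to 0.89), a fold of 1.49, and the limma adjusted p of 0.0885 missed the threshold. It missed it in each of the 12 alternatives with all libraries, where the limma adjusted p ranged from 0.0515 to 0.803.

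The value of Creb1 moved most when the trend with transcript length and GC content was removed from each library. The longest annotated Creb1 transcript has 8364 bases and 39.6% GC, which places it, of 10 equal groups of tested genes by each measure, in the group with the longest transcripts and in that with the lowest GC content. The median log2 fold change was 0.19 in the former group and 0.20 in the latter, and -0.19 and -0.16 in the groups at the opposite ends. With that trend removed, the log2 fold change of Creb1 was 0.07 (limma adjusted p 0.803). The same step left Sik1 at 0.38 (limma adjusted p 0.305) and put the other 8 between -0.13 and 0.09. The transcript that the authors quantified need not be the longest one. The part of length and GC content in the Creb1 difference was not tested beyond this.

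**Figure D2:**
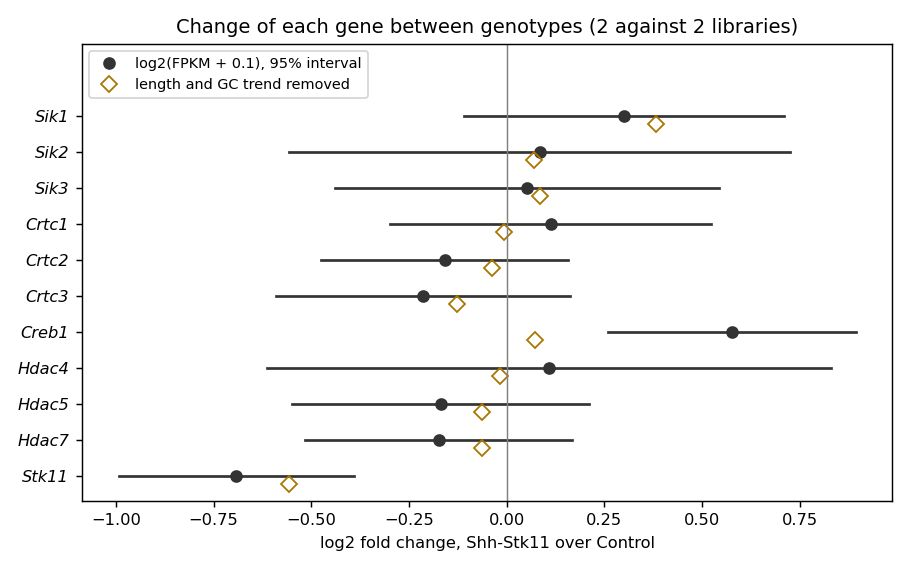
Log2 fold change of Shh-Stk11 over Control for the 10 genes and Stk11, from 2 against 2 libraries: filled circles with bars give the limma estimate and its 95% interval, and open diamonds the estimate once the trend with length and GC content is taken out. The bars of Creb1 and Stk11 do not cross 0, and the diamond of Creb1 lies at 0.07.

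The class IIa HDACs are repressors of MEF2 factors and the second class of SIK substrates. Hdac4, known for its role in growth plate cartilage, was at 3.17 and 1.74 FPKM in Control and at 2.84 and 2.28 FPKM in the Shh-Stk11 lungs. The Control libraries bracketed the others, with a log2 difference of -0.83 between them, and the log2 fold change between genotypes was 0.11 (SE 0.3, limma adjusted p 0.901). Its sign turned without Control 2 (-0.31), without Shh-Stk11 1 (-0.04) and with the trend with length and GC content taken out (-0.016). Hdac5, a deacetylase of muscle, brain and vessels, was at 33.2 and 25.8 FPKM in Control and at 24.6 and 27.6 FPKM in the Shh-Stk11 lungs. Control 1 stood above the other 3 libraries, and the log2 fold change of -0.17 (SE 0.158, limma adjusted p 0.671) was -0.35 without Control 2 and 0.01 without Control 1.

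Hdac7, the form needed for the integrity of embryonic blood vessels, was at 27.4 and 23.3 FPKM in Control and at 24.002 and 20.8 FPKM in the Shh-Stk11 lungs. The genotypes overlapped, with a log2 fold change of -0.17 (SE 0.143, limma adjusted p 0.62). The log2 fold change was -0.06 without Control 1, -0.29 without Control 2, -0.28 without Shh-Stk11 1 and -0.07 without Shh-Stk11 2. Of the endothelial markers, 8 of 8 had a negative log2 fold change, with a median of -0.34 and none past the threshold in limma. Of the 8, 4 had an unadjusted p below 0.05, beside 15.2% of all genes tested. Their summed level was 610 to 713 FPKM in Control and 493 to 525 FPKM in the Shh-Stk11 lungs, none of them was at 0, and their part in the Hdac7 values was not tested. Hdac9, the fourth class IIa enzyme, was at 3.60 and 2.06 FPKM in Control and at 2.01 and 3.13 FPKM in the Shh-Stk11 lungs (log2 fold change -0.11, limma adjusted p 0.904).

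The Control replicates differed to an unequal degree over the 10 genes. In 9 the value was lower in Control 2 than in Control 1, and in 6 the difference was larger than the median absolute log2 difference of all genes tested (0.183), while Crtc1, Crtc2, Crtc3 and Creb1 lay below it. Differences between these libraries followed transcript length over all genes, with a median Control 2 minus Control 1 of 0.21 in the group with the shortest and -0.20 in the group with the longest transcripts. The longest transcripts of the 10 genes ranged from 2992 bases (Crtc2) to 10265 bases (Crtc1). Hdac4 (-0.83), Sik2 (-0.75), Sik3 (-0.59), Sik1 (-0.43), Hdac5 (-0.36) and Hdac7 (-0.23) went beyond the median of the group with the longest transcripts. The summed level of 6 heart muscle markers was 109 FPKM in Control 1, 243 FPKM in Control 2, 139 FPKM in Shh-Stk11 1 and 53.4 FPKM in Shh-Stk11 2, with no marker at 0, and its part in these differences was not tested.

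The most abundant gene of each family was the same in the 4 libraries. Sik1 gave 66.7% and 70.0% of the summed SIK FPKM in Control and 71.7% and 71.9% in Shh-Stk11 lungs. Sik3 gave 21.9% and 20.6% in Control and 18.3% and 19.3% in Shh-Stk11 lungs, both without overlap, and Sik2 gave 8.84% to 11.4% over all libraries. The SIK sum was 48.6 ± 11.8 FPKM in Control lungs and 56.2 ± 4.58 FPKM in the Shh-Stk11 lungs (SD, n = 2), with Control 2 lowest at 40.3 FPKM.

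Within the CRTC family, Crtc2 made up 43.0% to 46.6% of the sum, Crtc3 30.0% to 33.0% and Crtc1 20.4% to 25.7%. The Crtc3 share was 32.8% and 33.0% in Control and 31.3% and 30.0% in Shh-Stk11 lungs, without overlap. The Crtc1 share was 22.5% and 20.4% in Control and 25.7% and 24.5% in Shh-Stk11 lungs, again without overlap. The CRTC sum was 21.1 ± 0.225 FPKM in Control lungs and 19.5 ± 2.4 FPKM in the Shh-Stk11 lungs (SD, n = 2). Among the 4 class IIa HDACs, Hdac5 (46.0% to 51.3%) and Hdac7 (38.7% to 44.9%) held nearly all of the sum, and Hdac4 and Hdac9 each stayed below 6%. The HDAC sum was 60.1 ± 10.2 FPKM in Control lungs and 53.7 ± 0.278 FPKM in the Shh-Stk11 lungs (SD, n = 2), with Control 1 apart at 67.4 FPKM. These sums and shares were not tested. Within a family, a higher share of any gene goes with lower shares of the others. The shares without overlap in a family are thus not separate observations.

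**Figure D3:**
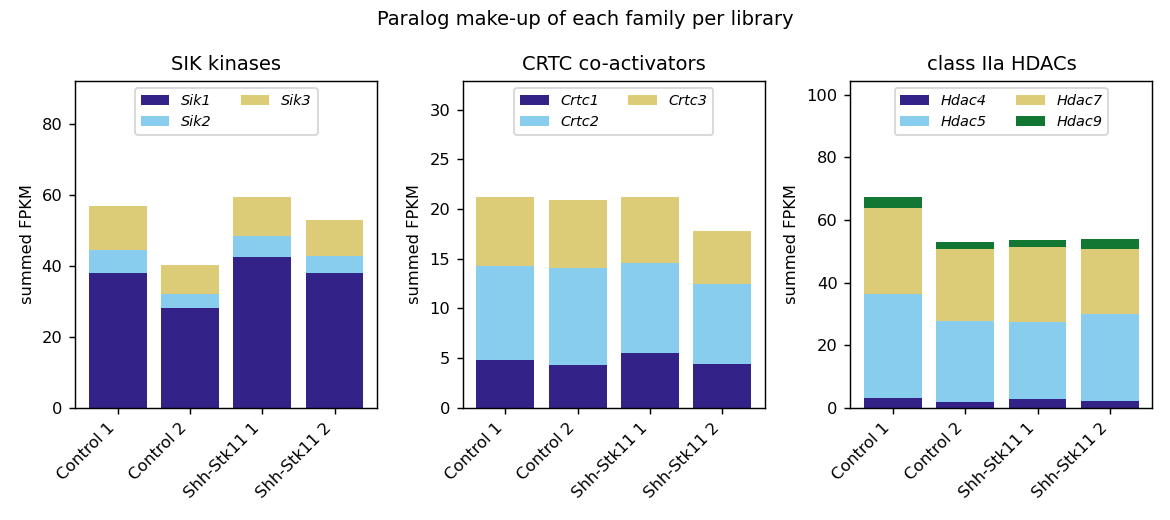
Summed FPKM of the 3 SIK, 3 CRTC and 4 class IIa HDAC genes in each library, stacked by gene (bars start at 0 and each bar is 1 library). Sik1 fills 66.7% to 71.9% of the SIK bars, and Hdac5 with Hdac7 fills most of the HDAC bars in every library.

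The genes around this pathway were then counted by lists. Of 12 genes of the STK11 complex and the 14-3-3 proteins, 1 was lower past the threshold, Stk11, and none was higher, where 1.29% of all genes tested were lower. Their median log2 fold change was -0.08, and 0.0010 with quantile normalization. Cab39l, which encodes a scaffold of the STK11 complex (MO25 beta) and was named after its values were seen, was at 33.5 and 34.0 FPKM in Control and at 20.4 and 23.6 FPKM in the Shh-Stk11 lungs, with a limma adjusted p of 0.0705. The 7 genes of 14-3-3 proteins, which hold phosphorylated CRTCs and HDACs, had log2 fold changes between -0.13 and 0.18.

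Of 17 tested genes of cyclic AMP production and protein kinase A, 0 passed the threshold in limma. Among the 17, 3 had an unadjusted p below 0.05, beside 15.2% of all genes tested. Their median log2 fold change was -0.19, and -0.068 at a minimum of 5 FPKM or -0.092 without Shh-Stk11 2. The largest differences of either sign in this list were those of adenylyl cyclase genes. Adcy7 was at 8.59 and 8.20 FPKM in Control and at 12.2 and 11.8 FPKM in the Shh-Stk11 lungs (log2 fold change 0.51, limma adjusted p 0.1). Adcy1 was at 1.05 and 1.04 FPKM in Control and at 0.781 and 0.294 FPKM in the Shh-Stk11 lungs (log2 fold change -0.96, limma adjusted p 0.361). In both, the genotypes did not overlap, as in 10 of the 17 tested genes of the list, beside 46.8% of all genes tested.

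The 4 tested calcineurin genes, whose phosphatase releases CRTCs from 14-3-3 proteins, had a median log2 fold change of 0.06, with 0 past the threshold in limma and 1 at an unadjusted p below 0.05. The sign of this median turned with the trend with length and GC content taken out (-0.026), and it was 0.14 with quantile normalization. Ppp3ca, a catalytic subunit, was at 46.2 and 39.3 FPKM in Control and at 57.0 and 61.8 FPKM in the Shh-Stk11 lungs (limma adjusted p 0.153). Ppp3cc, another catalytic subunit, had a log2 fold change of -0.13 (limma adjusted p 0.761). The CREB relatives and acetyltransferases, 4 genes, had a median of 0.32, with 0 past the threshold in limma and 1 at an unadjusted p below 0.05. The median was 0.019 without Control 2, 0.096 without Shh-Stk11 1 and 0.13 with that trend taken out. Crem, which encodes a CREB relative and the inducible repressor ICER, was at 9.40 and 10.01 FPKM in Control and at 12.3 and 14.3 FPKM in the Shh-Stk11 lungs (log2 fold change 0.45, limma adjusted p 0.173). Atf1, the other CREB relative, was at 23.4 to 24.2 FPKM in the 4 libraries (log2 fold change 0.01, limma adjusted p 0.975). Crebbp, an acetyltransferase recruited by phosphorylated CREB, was at 7.53 and 3.75 FPKM in Control and at 8.93 and 5.79 FPKM in the Shh-Stk11 lungs, with overlap (limma adjusted p 0.618).

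Among 7 tested partners of class IIa HDACs, 0 passed the threshold in limma and 1 had an unadjusted p below 0.05. Their median of 0.14 was -0.0020 with the trend with length and GC content taken out, 0.31 without Control 1 and -0.014 without Control 2. Ncor1, a corepressor that class IIa HDACs recruit, was at 19.3 and 16.9 FPKM in Control and at 24.5 and 22.5 FPKM in the Shh-Stk11 lungs (log2 fold change 0.38, limma adjusted p 0.233), and 0.12 after the trend with length and GC content was taken out. Mef2a, a MEF2 factor, had a log2 fold change of 0.20 (limma adjusted p 0.58), and of -0.0020 after the same step. Of 10 other kinases that phosphorylate class IIa HDACs, 0 passed in limma and 0 had an unadjusted p below 0.05. Their median was -0.07 (-0.0094 without Control 1 and -0.014 without Shh-Stk11 2), with Camk4 at 0.46 and Camk1 at -0.32. The 4 tested MEF2 target genes all had negative log2 fold changes (median -0.29, 0 past the threshold in limma and 0 at an unadjusted p below 0.05), from -0.23 to -0.40, with Klf4 (-0.40, limma adjusted p 0.44) and Jun (-0.29, limma adjusted p 0.365) furthest from 0. Their median was -0.14 with the trend with length and GC content taken out, and -0.16 without Control 1 and -0.49 without Control 2. Endothelial markers, of which 8 of 8 had negative log2 fold changes (median -0.34), are given above beside Hdac7. Their part in the values of this list, which holds the endothelial genes Klf2 and Klf4, was not tested. The fifth gene of the list, Mmp10, was listed at 0 in each library.

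Genes that CREB and CRTCs are known to induce made the contrast to the 10 genes. Of 26 listed, 18 were tested, and 4 rose in Shh-Stk11 lungs past the threshold in limma, namely Areg, Pde10a, Ppargc1a and Pde4d, while none fell. This was 22.2% of those tested, beside 0.98% of all genes tested that were higher. The list was written with earlier results of these data known, among them rises of several of its genes, so the share is a description and not independent evidence. The median over the 18 was 0.23, with 13 above and 5 below 0, and 8 had an unadjusted p below 0.05, beside 15.2% of all genes tested. That median was 0.12 without Shh-Stk11 2, 0.38 without Shh-Stk11 1 and 0.34 with the trend with length and GC content taken out.

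Areg, which encodes the EGF receptor ligand amphiregulin, was at 11.0 and 10.9 FPKM in Control and at 75.6 and 64.4 FPKM in the Shh-Stk11 lungs. This was a log2 fold change of 2.66 (SE 0.13, limma adjusted p 0.00139). Pde10a and Pde4d encode phosphodiesterases that break down cyclic AMP. Pde10a was at 0.660 and 0.707 FPKM in Control and at 5.67 and 4.88 FPKM in the Shh-Stk11 lungs, a rise of 2.78 on the log2 scale (SE 0.197, limma adjusted p 0.00329). Pde4d was at 3.33 and 2.17 FPKM in Control and at 8.61 and 7.31 FPKM in the Shh-Stk11 lungs, a rise of 1.53 (SE 0.226, limma adjusted p 0.0289). Each Shh-Stk11 value of these genes stood well above each Control value. Ppargc1a, which encodes the mitochondrial co-activator PGC-1 alpha, was at 2.28 and 1.99 FPKM in Control and at 7.20 and 7.97 FPKM in the Shh-Stk11 lungs, a rise of 1.78 (SE 0.16, limma adjusted p 0.00525). With the length and GC trend removed, the log2 fold changes of Areg, Pde10a, Pde4d and Ppargc1a were 2.81, 2.57, 1.56 and 1.51. Pde4d then narrowly missed the threshold (limma adjusted p 0.0514), as it did when any 1 library was left out (0.0655 to 0.143). Ppargc1a missed it without Control 1 (limma adjusted p 0.058) and without Control 2 (0.0776). Without a filter on low values, 0 of the 4 passed (limma adjusted p 0.113 for Areg, 0.173 for Pde10a, 0.18 for Ppargc1a and 0.329 for Pde4d).

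Other genes of the list did not pass the test. The NR4A nuclear receptors are classical early targets of CREB. Nr4a1 was at 4.72 and 4.29 FPKM in Control and at 6.99 and 5.88 FPKM in the Shh-Stk11 lungs (log2 fold change 0.50, limma adjusted p 0.184). Nr4a2 was at 1.37 and 2.13 FPKM in Control and at 2.33 and 1.57 FPKM in the Shh-Stk11 lungs, with overlap (log2 fold change 0.15, limma adjusted p 0.85). Nr4a3 was below the minimum, at 0.0469 to 0.0579 FPKM. The phosphodiesterase gene Pde4b, named after its values were seen, was at 31.4 and 36.9 FPKM in Control and at 33.1 and 28.6 FPKM in the Shh-Stk11 lungs. The other untested genes of the list lay at or below 0.340 FPKM in every library, and 2 of them, G6pc and Sst, were listed at 0 throughout. Of the ciliated cell markers, 4 of 4 were lower past the threshold in limma, beside 1.29% of all genes tested, with a summed level of 39.2 to 41.2 FPKM in Control and 14.6 to 16.2 FPKM in the Shh-Stk11 lungs and none at 0. With the trend with length and GC content taken out, 2 of the 4 (Myb and Ccno) missed the threshold (limma adjusted p 0.0549 and 0.0679), with log2 fold changes of -1.35 and -0.72 in place of -1.37 and -0.87. Of 6 mesenchymal markers, 6 had negative log2 fold changes (median -0.41) and 0 passed the threshold in limma. Of these 6, 5 had an unadjusted p below 0.05, beside 15.2% of all genes tested. Their summed level was 555 to 688 FPKM in Control lungs and 472 to 479 FPKM in the Shh-Stk11 lungs. Of the 5 epithelial markers, 4 did not overlap between genotypes, beside 46.8% of all genes tested, and 0 passed the test in limma: Sftpc (-0.76) was lower in Shh-Stk11 lungs, and Cdh1 (0.49), Sftpb (0.41) and Nkx2-1 (0.21) were higher. Of 5 red blood cell markers, 5 had negative log2 fold changes (median -0.57) and 1 was lower past the threshold, Hba-x (-1.49, limma adjusted p 0.0158), with a summed level of 165 to 166 FPKM in Control lungs and 97.1 to 100.1 FPKM in the Shh-Stk11 lungs. Of 4 immune markers, 3 had positive log2 fold changes (median 0.17), 0 passed the threshold in limma and 1 had an unadjusted p below 0.05, with summed levels of 288 to 325 FPKM in Control lungs and 196 to 381 FPKM in the Shh-Stk11 lungs. The 5 tested heart muscle markers had a median of -0.94, all overlapped between genotypes and 0 had an unadjusted p below 0.05 in limma. The part of these cell types in the 4 rises was not tested.

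**Figure D4:**
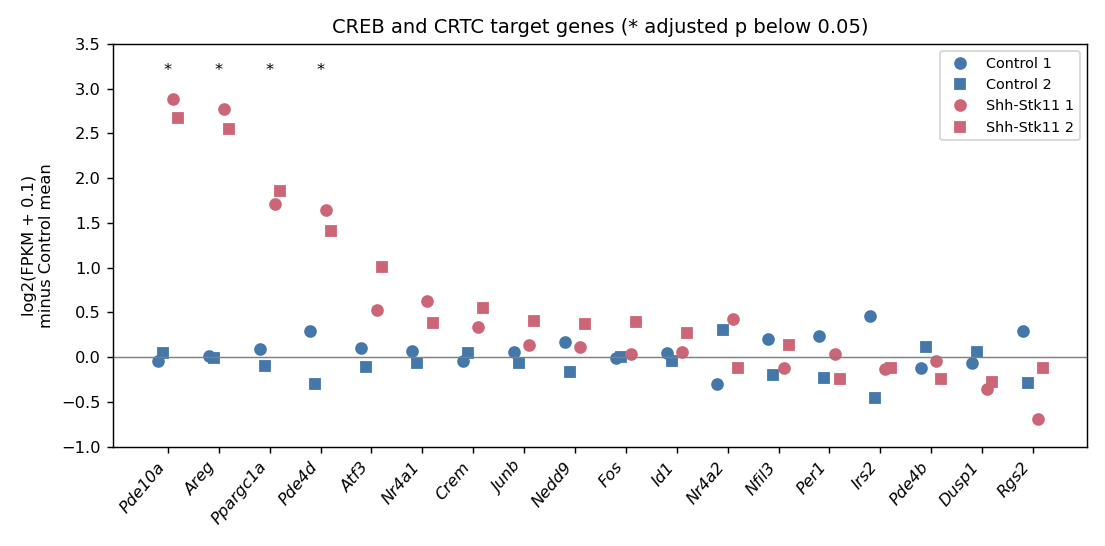
Log2(FPKM + 0.1) of the 18 tested CREB and CRTC target genes in each library, as the difference from the Control mean of the gene, ordered by log2 fold change, with asterisks over the 4 genes with an adjusted p below 0.05 in limma. Both Shh-Stk11 libraries stand far above both Control libraries for those 4 genes, and the libraries of the genes from Nr4a2 to Irs2 overlap.

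CREB binds the cyclic AMP response element (CRE), in full TGACGTCA or as the short site TGACG (either strand), and promoter sequences were read to show where such letters lie. RefSeq windows of 250 bases before to 50 bases after an annotated start (GRCm38.p6) were searched on both strands. The full site is its own reverse complement and holds a short site on each strand. The full site was in 1.79% and a short site in 20.8% of 32851 windows. Windows were found for 8 of the 10 genes, while Sik1 and Crtc2 had none and were not searched. In 0 of these 8 was a full site found, and 4 (Sik2, Sik3, Hdac4, Hdac5) held short sites. Of the 23 target genes with a window, 3 held a full site (Areg, Dusp1, Sst) and 18 a short site. A gene with several windows was counted if any of them matched. The gene counts are thus not in the same unit as the shares of windows.

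Stretches of the Sik3 and Hdac4 windows are shown because these had the most short sites among the 8 genes with a window. The last 100 bases before the Creb1 start are shown because that gene had the largest difference of the 10. Sik3 has short sites 133, 116 and 57 bases before the start, and Hdac4 at 103 and 51 bases before it and 1 more after it, outside the stretch printed. The Creb1 window held none. Bases of a match are in capitals, and each line reads 5′ to 3′ along the gene.
Sik3, chr9:46012675-46012773, plus strand: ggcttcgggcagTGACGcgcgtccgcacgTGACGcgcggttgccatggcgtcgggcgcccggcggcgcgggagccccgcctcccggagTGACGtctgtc
Hdac4, chr1:92180358-92180456, minus strand: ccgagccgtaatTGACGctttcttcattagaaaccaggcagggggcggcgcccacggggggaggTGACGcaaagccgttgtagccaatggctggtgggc
Creb1, chr1:64532704-64532803, plus strand: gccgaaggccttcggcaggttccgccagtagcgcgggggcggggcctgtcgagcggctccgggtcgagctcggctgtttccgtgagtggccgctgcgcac

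Among the target genes, Areg had a full site 61 bases before the start and a short site at 115 bases, and Ppargc1a had a short site at 49 bases. The windows of Pde10a (2 starts) and Pde4d (1 start) held neither, which says only that these letters are not in these windows. Dusp1, which encodes a MAP kinase phosphatase, also had a full site, at 143 bases, and Nr4a1 had 4 short sites, 2 of them in the stretch shown. They are set beside the others because neither passed the test: Dusp1 was at 19.9 and 21.7 FPKM in Control and at 16.2 and 17.1 FPKM in the Shh-Stk11 lungs (log2 fold change -0.32, limma adjusted p 0.283).
Areg, chr5:91139474-91139572, plus strand: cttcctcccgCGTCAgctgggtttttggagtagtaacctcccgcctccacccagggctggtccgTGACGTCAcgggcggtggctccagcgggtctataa
Ppargc1a, chr5:51567726-51567824, minus strand: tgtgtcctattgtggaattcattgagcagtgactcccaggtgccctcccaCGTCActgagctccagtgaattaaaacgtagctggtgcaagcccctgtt
Dusp1, chr17:26508579-26508677, minus strand: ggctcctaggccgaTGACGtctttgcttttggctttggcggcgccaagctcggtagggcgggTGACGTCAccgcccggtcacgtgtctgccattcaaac
Nr4a1, chr15:101266747-101266845, plus strand: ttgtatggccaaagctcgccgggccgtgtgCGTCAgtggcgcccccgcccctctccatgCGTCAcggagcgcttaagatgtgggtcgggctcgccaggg

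**Figure D5:**
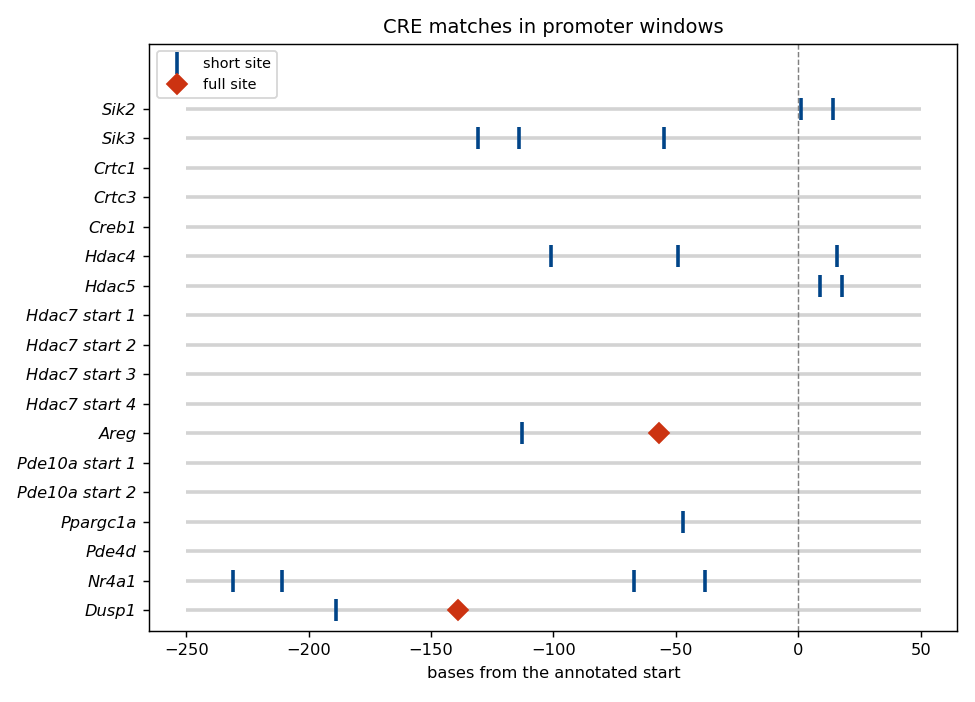
Positions of CRE matches in bases from the annotated start (dashed line at 0) in the promoter windows of 8 of the 10 genes and of 6 target genes, with bars for short sites, diamonds for full sites and a grey line for each window searched. Full sites appear for Areg and Dusp1 only among these windows, and the windows of Crtc1, Crtc3, Creb1, Hdac7, Pde10a and Pde4d are empty.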

How the data were processed

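For the 4 libraries, total RNA of whole E16.5 lungs was sequenced as single-end 50-base reads (methods of the study). The number of lungs per library is not given there. The authors deposited gene-level FPKM values of all libraries in 1 table. The submitters' processing notes name TopHat2 2.0.13, Cufflinks 2.2.1, and both GRCm38 and mm9, so no positions are tied to the expression values. Annotation and any scaling between libraries are not given in the sources used here.

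FPKM values were tested with limma 3.58.1 in R 4.3.3 (lmFit, eBayes with trend, two-sided) on log2(FPKM + 0.1) for genes whose mean reached 0.5 FPKM, with genotype as the only term. Fold changes on this scale understate changes of low genes. The script was tested on simulated data. Length and GC content came from the longest GENCODE M21 transcript, for 22138 of 22556 genes matched by symbol or RefSeq synonym. The length and GC trend was removed by loess (span 0.5, degree 2) of each library's deviation from the gene mean. Depth came from the 78.5% of 1806 genes below 0.3 FPKM whose values were whole multiples of a step (tolerance 0.02 times the square root of the multiple), using 210 single-transcript genes of at least 2000 bases less 200 bases. The p-values rest on the spread between 2 biological replicates per genotype. For each gene, eBayes draws this spread toward that of genes at a similar level.

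The genes and lists were chosen with earlier results of these data known. Named were the 10 genes, Stk11, list genes past the threshold (otherwise the 2 with the largest change), Hdac9, Crem, Atf1 and Nr4a1 to Nr4a3. Others are said to be named after their values were seen, or serve as markers. Replicate numbers are shared by the genotypes but mark no litter or batch. Alternatives changed the pseudocount, filter, scaling, variance model, replicate block and libraries used.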

Additional observations from a re-analysis of the deposited data

How the results depend on the processing

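None of the 10 genes passed the threshold in limma in any of the 16 alternatives, where Crtc1 and Hdac4 were not tested at a minimum of 5 FPKM. With the length and GC trend removed, the sign turned for Crtc1 (-0.0062) and Hdac4 (-0.016). Leaving out 1 library at a time gave Sik2 -0.29 to 0.46, Sik3 -0.24 to 0.35, Crtc1 -0.045 to 0.27, Hdac4 -0.31 to 0.52 and Hdac5 -0.35 to 0.012, and Hdac7 -0.29 to -0.058 with no change of sign. The cause was not tested. Genes higher in Shh-Stk11 lungs over all genes numbered 135 and genes lower 178. These became 0 and 1 without a filter on low values (limma on all 22556 genes, 1191 higher and 1372 lower at an unadjusted p below 0.05), 77 and 102 after removal of that trend, and 303 and 284 with robust eBayes. Genes lower were 90 at a minimum of 5 FPKM. Leaving out 1 library gave 15 to 64 higher and 23 to 127 lower. The replicate block left 6 higher and 7 lower. Same-numbered libraries deviated with a correlation of -0.114 across genes, so a crossed block, added after seeing the data, was fitted, with 360 higher and 315 lower. Of the 4 target genes that rose, Areg and Pde4d passed at a minimum of 5 FPKM (12 genes tested). Pde10a and Ppargc1a, with means of 2.98 and 4.86 FPKM, were not tested there. Without a filter 0 of the 4 passed. With the replicate block 1 passed, Areg (limma adjusted p 0.0505 for Pde10a, 0.0721 for Ppargc1a and 0.087 for Pde4d). Pde4d was lost when any 1 library was left out, and Ppargc1a without Control 1 or Control 2.

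Median log2 fold changes of the lists moved by more than the pooled SD, between replicates, of the list's own median as follows. STK11 complex and 14-3-3 proteins went to 0.0010 with quantile normalization, -0.034 with median-ratio scaling and -0.020 with the trend removed (-0.060 to -0.0090 without 1 library). Cyclic AMP and protein kinase A went to -0.068 at a minimum of 5 FPKM and -0.13 without a filter (-0.26 to -0.092 without 1 library). Calcineurin went to 0.14 with quantile normalization and -0.026 with the trend removed. CREB relatives went to 0.13 and target genes to 0.34 with the trend removed (0.019 to 0.38 and 0.12 to 0.38 without 1 library). Other HDAC kinases went to -0.052 with a pseudocount of 1, -0.045 with quantile normalization and -0.031 with median-ratio scaling (-0.066 to -0.0094 without 1 library).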
